A study of Mus musculus with 6 samples.

Results

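The BCL2 family of apoptosis genes was examined here through 10 members, chosen by gene symbol: the pro-survival genes Bcl2, Bcl2l1 and Mcl1, the effector genes Bax and Bak1, and the BH3-only genes Bcl2l11, Bbc3, Pmaip1, Bid and Bik. All 10 were found among the 23238 gene symbols of the count files, each on a single line. The cells were mouse embryonic stem cells (strain 129/Ola), called Niwa in the labels. The control group was a stable line carrying EGFP (labelled EGFP stable cell line or Niwa-GFP), and the experimental group was a stable line carrying EWS-OCT-4, given in the protocols as EWS-OCT4A joined to GFP. The fusion joins EWS, a protein known from Ewing sarcoma, to the pluripotency factor OCT-4. There were 3 libraries for each line. Embryonic stem cell medium containing LIF was used throughout, and both lines were given doxycycline (1 µg/ml), which lowers the OCT-4 of the cells themselves. No library was without doxycycline, so that lowering cannot be checked here, each line is a single stable line, and the labels give neither the promoter of the transgene nor the hours of treatment. A higher or lower level below therefore means the EWS-OCT4 line against the EGFP line, and the fusion cannot be told apart from anything else that differed between the lines.

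BCL2 family proteins decide whether the outer membrane of the mitochondrion stays intact. Pro-survival members hold the effectors BAX and BAK in check, and BH3-only proteins, made or activated under stress, bind the pro-survival members or the effectors and so free the effectors to form pores. Cytochrome c then leaves the mitochondrion, joins APAF1 and activates caspases. Pluripotent stem cells are known to lie close to this threshold, and loss of single pro-survival members can kill them. Only transcripts were measured here, so the amount, activation and cleavage of the proteins, and cell death itself, are not known.

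The largest rise and the largest fall among the members were those of Bid and Bcl2l1, and the 250 bases before the RefSeq start of each are shown for that reason. Both were taken from RefSeq (GRCm38.p6, the assembly of mm10) and read 5′ to 3′ on the strand of the gene, which is the minus strand for both. Capitals mark the GC box GGGCGG, searched on both strands. The table held 3 start sites for Bcl2l1, of which the one at the start of the GENCODE gene was used. The RefSeq start of Bid lies 29 bases inside the GENCODE gene, so that these 29 bases of its stretch are within the gene as placed below. The Bid stretch lies at chr6:120916825-120917074 and the Bcl2l1 stretch at chr2:152831729-152831978.
Bid: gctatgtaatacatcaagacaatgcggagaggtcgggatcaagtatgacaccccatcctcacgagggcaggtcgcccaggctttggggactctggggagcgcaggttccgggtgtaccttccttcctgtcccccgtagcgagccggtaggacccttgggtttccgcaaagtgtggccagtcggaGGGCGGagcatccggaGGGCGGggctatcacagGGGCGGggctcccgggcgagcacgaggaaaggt
Bcl2l1: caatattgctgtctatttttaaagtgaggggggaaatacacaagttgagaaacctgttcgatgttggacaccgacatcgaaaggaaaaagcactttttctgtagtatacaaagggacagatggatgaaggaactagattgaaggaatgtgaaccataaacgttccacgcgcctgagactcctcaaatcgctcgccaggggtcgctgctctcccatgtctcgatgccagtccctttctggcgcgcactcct
The Bid stretch held 3 GC boxes and 63.6% G and C, and the Bcl2l1 stretch held 0 GC boxes and 47.6% G and C, against a median of 52.4% over 32851 promoter stretches of the same length. A GC box was present in 32.7% of those stretches and in 6 of the 8 members searched. The stretches of Bbc3 (5 GC boxes) and Bak1 (0) lie wholly within the genes as placed below. Their RefSeq starts are 1190 and 382 bases inside the GENCODE genes. Pmaip1 and Bik were not searched. The octamer ATGCAAAT, the element that OCT-4 is known to bind, was searched on both strands too and was in 0 of these 8 members and in 1.60% of all stretches. The palindromic E-box CACGTG was in 1 of the 8 (Bax), against 6.02% of all stretches. Such matches describe letters only, and say nothing about binding.

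The libraries held 10978025 to 14935887 counts, so that a single count stood for 0.0670 to 0.0911 CPM (counts scaled to a common library total). All levels below are in CPM after further TMM scaling between libraries, with factors of 0.971 to 1.03. In both lines library 3 differed from libraries 1 and 2, by a chi-square of 23.7 to 32.3 for each degree of freedom, where libraries 1 and 2 differed by 3.96 and 4.21. Values are therefore also given for numbers 1 and 2 alone and for number 3 alone. As a check of the labelled cell type, 6 of 6 pluripotency markers were higher in the EWS-OCT4 line, with a summed level of 3338 to 3614 CPM against 103 to 135 CPM in the EGFP line. All 7 trophoblast markers were lower, with 13.9 to 26.2 CPM in the EWS-OCT4 line, where Plac1 had no count, against 3518 to 4136 CPM. In the EGFP line the keratin genes Krt8 (1757 CPM on average) and Krt18 (1619 CPM) made up most of that sum. Gata3 (332 CPM), Plac1 (90.4 CPM), Hand1 (77.1 CPM), Cdx2 (28.0 CPM) and Elf5 (11.1 CPM) made up the rest. The EGFP libraries, labelled embryonic stem cell, were thus low in pluripotency markers and high in trophoblast markers. In the other marker lists the genes did not move together, and on average a single gene set most of the larger sum in each list. Of the 3 tested primitive endoderm markers, Gata6 (31.2 to 1.07 CPM on average) and Pdgfra (2.85 to 0.0307 CPM) fell and Gata4 rose (0.143 to 2.08 CPM), with sums of 31.8 to 39.6 CPM in EGFP and 4.34 to 4.53 CPM in EWS-OCT4 libraries. Of the 5 tested fibroblast markers, Thy1 (0.636 to 17.9 CPM) and Pdgfrb (2.25 to 5.51 CPM) rose and the 3 collagen genes did not pass, with sums of 6.37 to 8.05 and 25.4 to 33.0 CPM. Of the 4 neural markers, Sox1 (0.0217 to 49.7 CPM) and Pax6 (1.22 to 5.39 CPM) rose, Nes fell (10.9 to 6.75 CPM) and Tubb3 did not pass, with sums of 25.8 to 41.7 and 75.7 to 103 CPM. Of the 3 tested blood and endothelial markers, Pecam1 rose (3.22 to 106 CPM), and Kdr (2.83 to 0.397 CPM) and Cdh5 (51.0 CPM to no count) fell, with sums of 37.9 to 74.1 and 87.1 to 133 CPM. The ribosomal RNA gene Rn45s took 5.85% to 6.44% of the counts in EGFP libraries, 10.4% and 10.5% in EWS-OCT4 libraries 1 and 2, and 7.36% in EWS-OCT4 library 3. The part of these differences in the results below was not tested. Fewer cells of a type and less RNA per cell cannot be told apart in such bulk samples. The labels do not name separate cultures behind the libraries, and p-values thus measure only the spread between these libraries, which may be technical.

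All 10 members passed the filter on low counts and were tested. Of these, 6 rose, 2 fell and 2 did not pass an adjusted p of 0.05 by edgeR's quasi-likelihood test, in a comparison where 67.4% of all 13467 tested genes passed, 33.3% of them higher and 34.1% lower as shares of all tested genes. A total of 8 of 10 is thus near the share of all genes. The median change of the members was 0.62 on the log2 scale, against -0.0042 for all tested genes. In size the members were like other genes, with a median absolute log2 change of 0.94 against 0.93. Called changes of at least 2-fold were found in 4 members, where 45.4% of all tested genes had one: Bid and Pmaip1 were higher, against 21.8% of all genes, and Bcl2l1 and Bik lower, against 23.6%. In 9 members the values of the lines did not overlap, against 72.7% of all tested genes. With libraries 1 and 2 of each line alone, 7 members were called, and so were 75.6% of all tested genes.

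**Figure D1:**
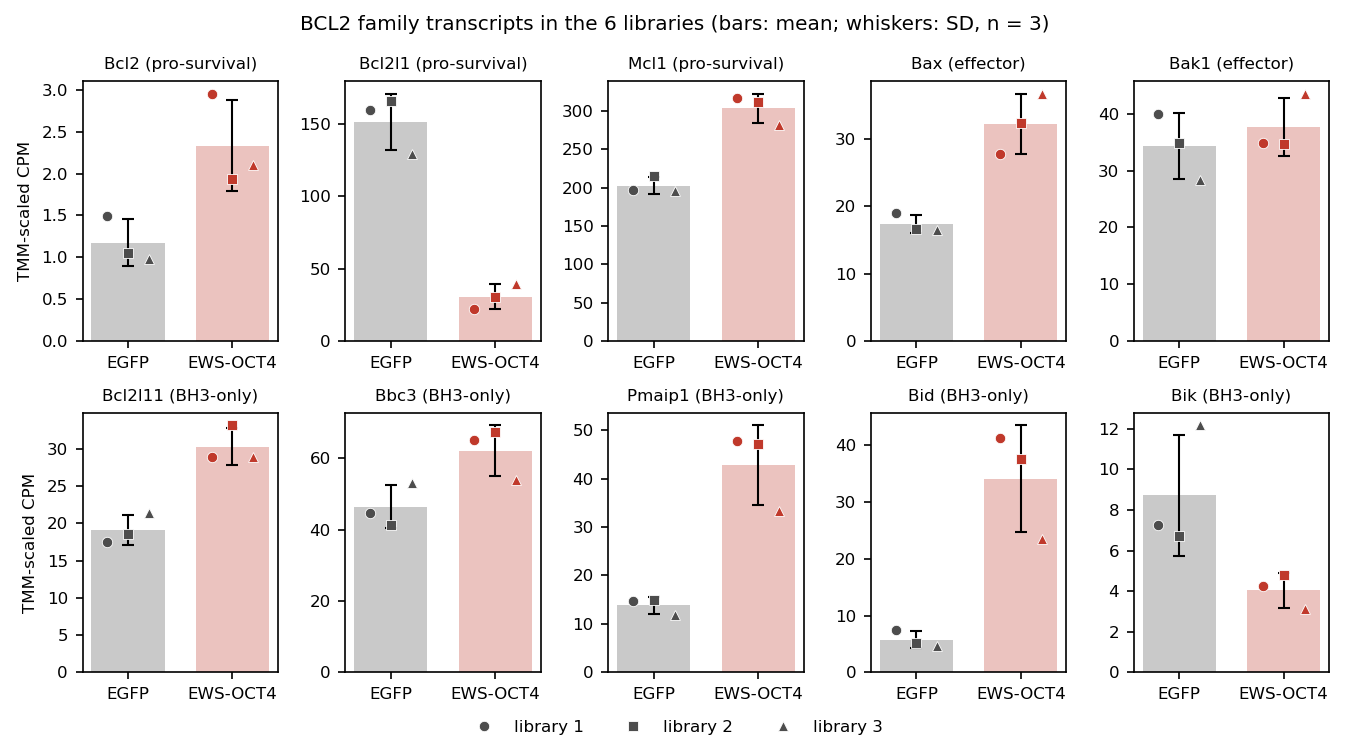
Level of each member in TMM-scaled CPM (y axis, from 0) in the EGFP line and the EWS-OCT4 line; bars are means, whiskers are SD (n = 3), and circles, squares and triangles are the libraries numbered 1, 2 and 3. The values of Bcl2l1 lie between 129 and 165 CPM in the EGFP line and between 22.05 and 39.5 CPM in the EWS-OCT4 line, while those of Bak1 overlap.

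Among the pro-survival genes, Bcl2l1 fell, Mcl1 rose and Bcl2 did not pass the test. Bcl2l1 encodes BCL-XL, a guard of the mitochondrial membrane, and lies on chromosome 2 (152780668 to 152831728, GENCODE M21 on GRCm38, minus strand), where no other annotated gene overlaps it. Its level was 159, 165 and 129 CPM in EGFP libraries 1, 2 and 3, and 22.05, 30.2 and 39.5 CPM in EWS-OCT4 libraries 1, 2 and 3. Every EWS-OCT4 library was thus far below every EGFP library, and the libraries numbered 3 were nearest to each other. Means were 151 ± 19.3 CPM and 30.6 ± 8.72 CPM (SD, n = 3), a log2 difference of -2.31 (SE 0.21, adjusted p = 6.2e-06 by edgeR), or 4.95-fold lower. The log2 difference was -2.65 between numbers 1 and 2 and -1.71 between numbers 3. Of all tested genes, 18.9% had a larger change in either direction. Short tags from the 3′ end do not tell the long, protective transcript of this gene from the short, pro-apoptotic splice form, which share that end.

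Mcl1, a short-lived pro-survival protein that early embryos are known to need, lies on chromosome 3 (95658788 to 95663176, plus strand) with no other annotated gene over it. It was the most abundant member in both lines, with 197, 215 and 196 CPM in the EGFP libraries and 316, 312 and 282 CPM in the EWS-OCT4 libraries. The lines did not overlap and the libraries of each line lay close together. Mcl1 rose 1.498-fold (202 ± 10.8 to 303 ± 18.8 CPM, SD, n = 3, log2 difference 0.58, SE 0.11, adjusted p = 0.00095 by edgeR), with 0.61 for numbers 1 and 2 and 0.52 for number 3. Tested against a change of 1.5-fold, the call was lost (adjusted p = 0.396).

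Bcl2, the founding member of the family (chromosome 1, 106538178 to 106714274, minus strand), was the least abundant of the 10, with 20, 15 and 15 counts in EGFP and 32, 21 and 25 counts in EWS-OCT4 libraries. In CPM these were 1.49, 1.05 and 0.975 against 2.95, 1.94 and 2.10. The EWS-OCT4 values lay above the EGFP values, but so few counts left a wide interval. The log2 difference was 0.99 (SE 0.42, 95% interval 0.04 to 1.93, adjusted p = 0.061 by edgeR), so that Bcl2 did not pass, although with upper quartile scaling it did (1.15, adjusted p = 0.0331). The annotation places exons of an antisense gene, D630008O14Rik, within the last exon of Bcl2 (558 shared bases), and whether the counting used strand is not stated in these sources.

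The summed level of the 3 pro-survival genes was 357, 382 and 326 CPM in the EGFP line and 341, 344 and 323 CPM in the EWS-OCT4 line. These sums overlapped between the lines, while the genes that supplied them differed. Mcl1 tags outnumbered Bcl2l1 tags 1.23, 1.30 and 1.51 times in the EGFP libraries and 14.4, 10.3 and 7.14 times in the EWS-OCT4 libraries. Such ratios are taken within a library and do not depend on scaling between libraries; 3′ tags are read once per transcript and were not divided by transcript length.

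The 2 effector genes encode the proteins that form pores in the mitochondrial membrane. Bax (chromosome 7, 45461697 to 45466898, minus strand) had 19.0, 16.7 and 16.5 CPM in the EGFP libraries and 27.8, 32.4 and 36.7 CPM in the EWS-OCT4 libraries. All EWS-OCT4 values were above all EGFP values. It rose 1.86-fold (17.4 ± 1.39 to 32.3 ± 4.47 CPM, SD, n = 3, log2 difference 0.89, SE 0.17, adjusted p = 0.00088 by edgeR), by 0.75 in numbers 1 and 2 and 1.14 in number 3. A predicted gene, Gm45808, shares 192 exonic bases with Bax on the same strand, none of them in the last exon of Bax.

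Bak1 (chromosome 17, 27019810 to 27029009, minus strand) had 39.9, 34.9 and 28.3 CPM in the EGFP libraries and 34.9, 34.6 and 43.5 CPM in the EWS-OCT4 libraries. These values overlapped, and both extremes were libraries numbered 3. The log2 difference was 0.13 (SE 0.17, 95% interval -0.25 to 0.52, adjusted p = 0.513 by edgeR), and it was -0.10 in numbers 1 and 2 and 0.62 in number 3. Its interval leaves room for a change of up to 0.52 on the log2 scale in the direction of a rise. Ggnbp1, a gene on the opposite strand that shares 614 exonic bases with Bak1 outside its last exon, was at 2.97 ± 0.517 and 11.997 ± 3.37 CPM (SD, n = 3). Bak1 had 2.10, 2.09 and 1.71 tags for each Bax tag in EGFP and 1.26, 1.07 and 1.19 in EWS-OCT4 libraries.

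**Figure D2:**
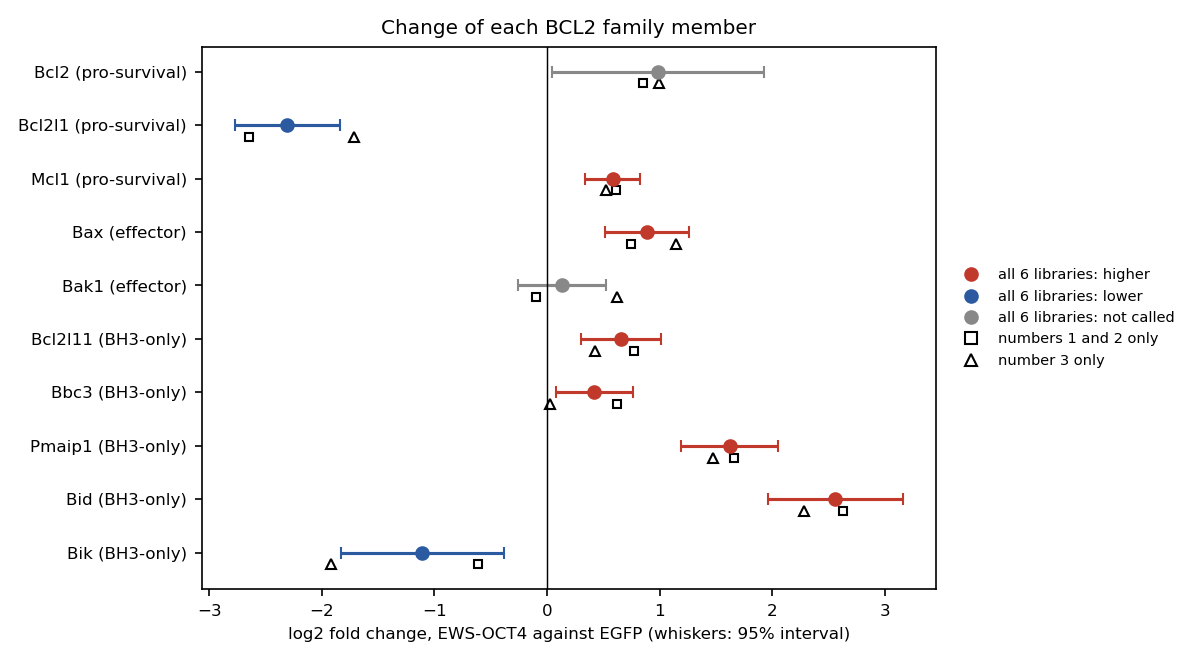
Log2 fold change of each member, EWS-OCT4 against EGFP (x axis); filled circles with 95% intervals are from all 6 libraries, open squares are the difference in libraries 1 and 2 only, and open triangles in library 3 only. Bcl2l1 (-2.31) and Bik (-1.11) lie left of 0, Bid (2.56) and Pmaip1 (1.62) lie farthest right, and the triangle of Bbc3 (0.02) lies close to 0.

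Of the 5 BH3-only genes, which encode the stress sensors of the family, 4 rose and Bik fell. Bid links death receptors to the mitochondrion, since caspase-8 cuts its protein into an active form. The gene lies on chromosome 6 (120891930 to 120916853, minus strand), and its upstream stretch with 3 GC boxes is printed above. Its level was 7.46, 5.19 and 4.68 CPM in the EGFP libraries and 41.1, 37.6 and 23.4 CPM in the EWS-OCT4 libraries. The lowest EWS-OCT4 value, that of number 3, was still above every EGFP value. Bid rose 5.90-fold (5.78 ± 1.48 to 34.1 ± 9.37 CPM, SD, n = 3, log2 difference 2.56, SE 0.27, adjusted p = 1.8e-05 by edgeR), and by 2.63 in numbers 1 and 2 and 2.28 in number 3. A larger change in either direction was found in 16.5% of tested genes. Bid ends tail to tail with another family gene, Bcl2l13, on the opposite strand. The outermost 3′ ends of their coding transcripts, at 120892854 and 120892842, are 12 bases apart. A longer Bid transcript, not annotated as protein-coding, shares 628 exonic bases with Bcl2l13. Tags of that Bid transcript and of Bcl2l13 could not be told apart without strand, and the level of Bcl2l13 was 56.3 ± 7.10 and 56.3 ± 2.28 CPM (SD, n = 3) in the lines.

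Pmaip1 encodes NOXA, a p53 target that binds MCL1 and speeds its loss, and lies on chromosome 18 (66458533 to 66465565, plus strand). Its level was 14.8, 15.01 and 11.8 CPM in the EGFP libraries and 47.8, 47.2 and 33.3 CPM in the EWS-OCT4 libraries. No value of one line reached the other. It rose 3.08-fold (13.9 ± 1.77 to 42.7 ± 8.23 CPM, SD, n = 3, log2 difference 1.62, SE 0.19, adjusted p = 4.2e-05 by edgeR), and by 1.66 in numbers 1 and 2 and 1.48 in number 3.

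Bcl2l11, which encodes BIM, a BH3-only protein that binds every pro-survival member, lies on chromosome 2 (128126038 to 128162547, plus strand). It had 17.5, 18.5 and 21.4 CPM in the EGFP libraries and 28.9, 33.2 and 28.9 CPM in the EWS-OCT4 libraries. The groups did not overlap, and the rise was moderate at 1.58-fold (19.1 ± 2.01 to 30.3 ± 2.47 CPM, SD, n = 3, log2 difference 0.66, SE 0.16, adjusted p = 0.0041 by edgeR). It was 0.78 in numbers 1 and 2 and 0.43 in number 3, and did not pass a test against 1.5-fold (adjusted p = 0.23).

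Bbc3 encodes PUMA, another p53 target (chromosome 7, 16308393 to 16318205, plus strand), and was the most abundant BH3-only member in both lines. Its level was 44.7, 41.4 and 53.1 CPM in the EGFP libraries and 65.1, 67.2 and 54.0 CPM in the EWS-OCT4 libraries. The lines did not overlap, but the 2 libraries numbered 3 nearly met. The rise of 1.34-fold (46.4 ± 6.02 to 62.1 ± 7.12 CPM, SD, n = 3, log2 difference 0.42, SE 0.15, adjusted p = 0.0325 by edgeR) was 0.62 in numbers 1 and 2 but 0.02 in number 3. The call was lost without EGFP replicate 1 (adjusted p = 0.12), EGFP replicate 2 (0.148), EWS-OCT4 replicate 1 (0.0929) and EWS-OCT4 replicate 2 (0.111), as did total counts without a scaling factor (0.0619). Without both libraries numbered 3 the adjusted p was 1.4e-05. There were 3.03, 2.76 and 4.48 Bbc3 tags for each Pmaip1 tag in EGFP and 1.36, 1.42 and 1.62 in EWS-OCT4 libraries.

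Bik, a BH3-only protein of the endoplasmic reticulum, lies on chromosome 15 (83526862 to 83544634, plus strand). Its level was low, at 7.23, 6.73 and 12.2 CPM in the EGFP libraries and 4.24, 4.80 and 3.11 CPM in the EWS-OCT4 libraries. The libraries numbered 3 held both extremes. Bik fell 2.15-fold (8.71 ± 3.00 to 4.05 ± 0.864 CPM, SD, n = 3, log2 difference -1.11, SE 0.32, adjusted p = 0.0118 by edgeR), and by 0.61 in numbers 1 and 2 against 1.92 in number 3 on the log2 scale. Without both libraries numbered 3 the log2 difference was -0.61 and the call was lost (adjusted p = 0.0758). For each Bik tag there were 1.03, 0.771 and 0.385 Bid tags in EGFP and 9.70, 7.83 and 7.54 in EWS-OCT4 libraries.

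Taking the 10 members as a pool, the make-up of their tags differed between the lines. The pool itself was 508, 519.9 and 474 CPM in the EGFP libraries and 591, 601 and 546 CPM in the EWS-OCT4 libraries. Pro-survival tags made up 70.4%, 73.4% and 68.8% of it in EGFP libraries, against 57.7%, 57.2% and 59.2% in EWS-OCT4 libraries. BH3-only tags made up 18.0%, 16.7% and 21.7% against 31.7%, 31.6% and 26.1%, and neither share overlapped between the lines. Effector tags, at 11.6%, 9.92% and 9.45% against 10.6%, 11.2% and 14.7%, did overlap. Within the pro-survival class, the share of Bcl2l1 in the pool was 30.2 ± 2.50% for EGFP and 5.33 ± 1.77% for EWS-OCT4 (SD, n = 3), and that of Mcl1 was 40.4 ± 1.53% and 52.3 ± 1.04%. For each BH3-only tag there were 3.90, 4.39 and 3.16 pro-survival tags in EGFP and 1.82, 1.81 and 2.27 in EWS-OCT4 libraries. Leaving out Mcl1, the most abundant member and one that rose, these ratios were 1.76, 1.92 and 1.26 against 0.134, 0.169 and 0.291. What is then left is almost only Bcl2l1, as Bcl2 was at 1.17 CPM in EGFP and 2.33 CPM in EWS-OCT4 on average. The ratios without Mcl1 therefore mainly restate the fall of Bcl2l1. The shares and ratios follow from the levels above, carry no test, and describe transcripts and not amounts of protein. They cover the chosen members only, and not the balance of the whole family. Left out were the BH3-only genes Bad (46.1 CPM in EGFP and 44.8 CPM in EWS-OCT4 on average), Bmf (16.1 and 8.11) and Hrk (7.11 and 9.49). The pro-survival gene Bcl2l2 (8.37 and 2.80 CPM) was left out too.

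**Figure D3:**
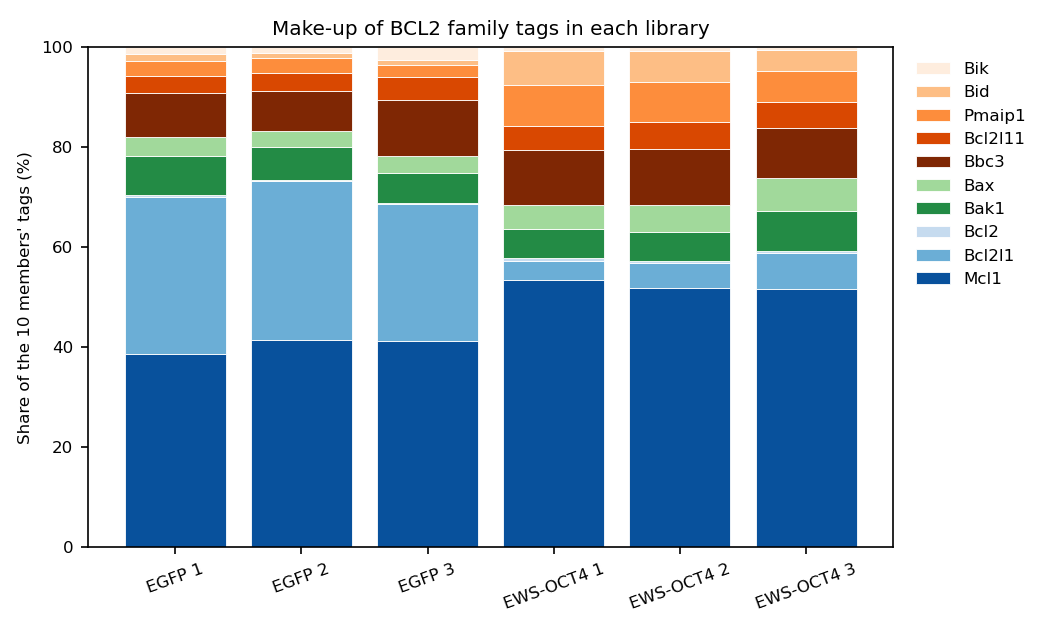
Share of each member in the tags of all 10 members (y axis, percent) in each of the 6 libraries (x axis); blues are pro-survival, greens effector and browns to oranges BH3-only genes. Bcl2l1 takes 27.3% to 31.8% of the tags in the EGFP libraries and 3.73% to 7.23% in the EWS-OCT4 libraries, where Mcl1 takes 51.6% to 53.5%.

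Beyond the 10 members, 16 further genes of the wider family were listed, of which 10 were tested, 2 rose and 5 fell (median -0.24 on the log2 scale, against -0.0042 for all tested genes). These counts and those of the lists that follow stand beside 33.3% of all tested genes higher and 34.1% lower, so that 7 of 10 called is near the 67.4% called in all. Bcl2l14, a BCL2-like gene, fell 5.57-fold (9.44 ± 2.33 to 1.68 ± 0.580 CPM, SD, n = 3). Bcl2l2, the pro-survival gene for BCL-W, had 9.17, 9.89 and 6.05 CPM against 2.77, 2.96 and 2.69 CPM and fell 2.98-fold (log2 difference -1.57, SE 0.30, adjusted p = 0.00098 by edgeR), so that it changed in the direction of Bcl2l1. Bnip3, a mitochondrial protein of hypoxia and mitophagy, fell from 95.3 ± 12.2 to 40.9 ± 16.9 CPM. Bok, a BAX-like effector, rose from 3.21 ± 0.913 to 7.28 ± 1.11 CPM (adjusted p = 0.0076 by edgeR). The other 3 called genes, named after their values were seen, were the BH3-only gene Bmf (-0.99) and Bnip3l (-0.43), which fell, and Bcl2l12 (0.56), which rose. Bad, Hrk and Bcl2l13 did not pass. The 6 that were not tested were Bcl2l10, Bcl2l15 and the near-identical Bcl2a1 genes, whose means were under 0.5 CPM in both lines.

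Downstream of the mitochondrion, all 11 genes of cytochrome c release and the apoptosome were tested, and 3 rose, 3 fell and 5 did not pass (median -0.015). Vdac1, a channel of the outer membrane, rose from 282 ± 18.6 to 517 ± 115 CPM. Apaf1, the scaffold of the apoptosome, had 31.2, 29.8 and 27.1 CPM in the EGFP libraries and 17.3, 19.6 and 5.71 CPM in the EWS-OCT4 libraries, a log2 difference of -1.05 (SE 0.35, adjusted p = 0.0233 by edgeR). EWS-OCT4 replicate 3 was far below its partners, and the log2 difference was -0.72 in numbers 1 and 2 and -2.22 in number 3. Without EWS-OCT4 replicate 3 the call stood with a smaller fall (-0.67, adjusted p = 0.0046 by edgeR). The call on Apaf1 was lost without EGFP replicate 1 (adjusted p = 0.0664) or 2 (0.0569). Htra2 and Endog, a protease and a nuclease released from mitochondria, fell by 0.86 and 0.91 on the log2 scale.

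Of 7 tested genes for other caspases and their nuclease, 2 rose, 3 fell and 2 did not pass (median -0.57). Casp8, the caspase that cuts BID, rose from 1.67 ± 0.312 to 7.16 ± 0.558 CPM, and is named after its values were seen. Casp6 fell from 22.7 ± 4.15 to 11.5 ± 3.19 CPM and Dffb, the nuclease that caspases release, from 15.1 ± 0.593 to 7.58 ± 2.71 CPM. The fall of Casp2 (-0.60, adjusted p = 0.0335 by edgeR) was lost without EGFP replicate 2, EGFP replicate 3, EWS-OCT4 replicate 1 or EWS-OCT4 replicate 2 (adjusted p of 0.0552 to 0.127). With upper quartile scaling it was lost too (adjusted p = 0.102 by edgeR).

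Inhibitors of apoptosis proteins bind caspases or their activators, and of 6 tested genes 3 rose, 2 fell and 1 did not pass (median 0.14). Birc3 fell 4.57-fold (11.2 ± 0.534 to 2.43 ± 0.609 CPM, SD, n = 3), and Xiap, a direct caspase inhibitor, fell from 80.4 ± 7.88 to 49.1 ± 2.05 CPM. Birc2 and Birc5, the latter better known for its part in cell division, rose from 26.2 ± 5.85 to 42.7 ± 0.879 CPM and from 279 ± 27.5 to 395 ± 30.8 CPM.

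Death receptor signalling reaches the family through BID. Of 10 listed genes, 8 were tested, 7 fell and 1 rose, where 34.1% of all tested genes fell and 33.3% rose. Casp8, which rose, was listed with the caspases above and is not counted here. The median log2 difference was -1.43, against -0.0042 for all tested genes. The median was the same with Fasl at its bound, as Fasl had 133 counts in the EGFP line and none in the EWS-OCT4 line and was at least 11.7-fold lower with a floor of 3 counts per library. The receptor Tnfrsf1a fell 4.26-fold (35.3 ± 6.18 to 8.27 ± 1.93 CPM) and Tnfrsf10b, the mouse TRAIL receptor, 3.06-fold (64.9 ± 8.94 to 21.2 ± 2.81 CPM). Of the signalling adaptors, Ripk1 fell from 12.3 ± 2.64 to 4.31 ± 1.11 CPM and Tradd from 13.6 ± 1.09 to 5.29 ± 0.861 CPM. The single gene that rose, Ripk3 (1.31 ± 0.613 to 5.28 ± 2.31 CPM), is a kinase of necroptosis. Fasl and Ripk3 are named after their values were seen.

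**Figure D4:**
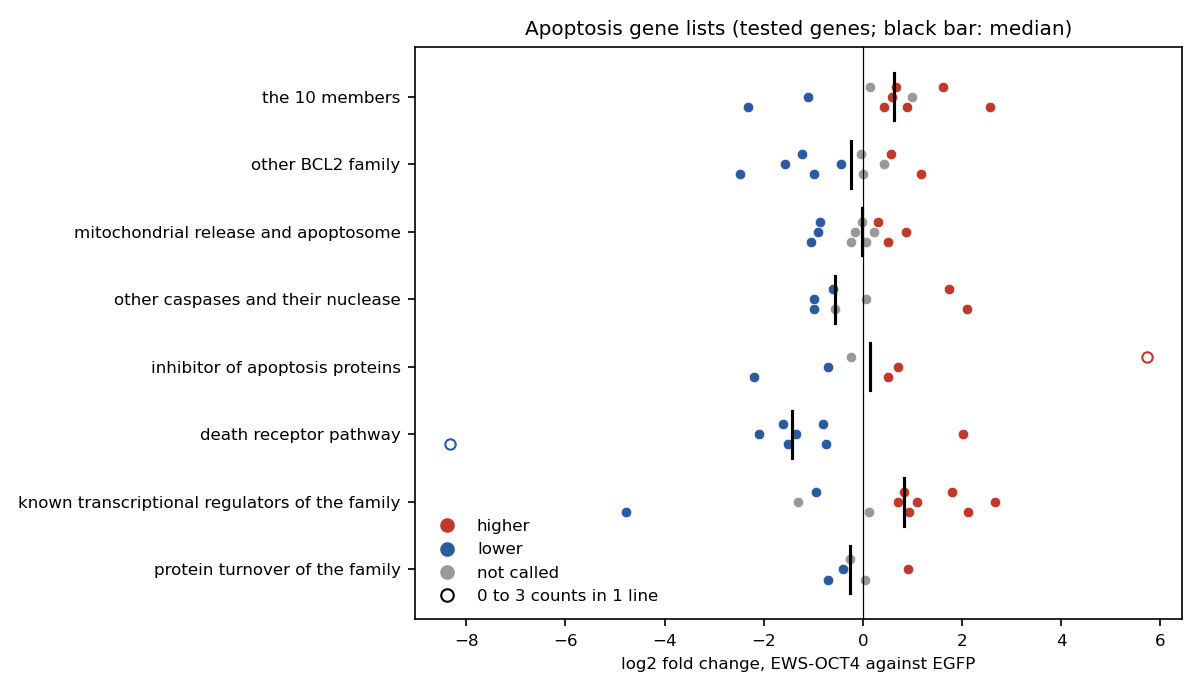
Log2 fold change, EWS-OCT4 against EGFP (x axis), of the tested genes of each list (y axis); colours give the direction of called genes, black bars are medians, and open circles are Fasl and Birc7, whose fitted size depends on 0 to 3 counts in one line. The median of the death receptor pathway is -1.43, that of the 10 members 0.62.

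Among known transcriptional regulators of the family, 11 of 12 were tested, 7 rose, 2 fell and 2 did not pass (median 0.84), where 33.3% of all tested genes rose and 34.1% fell. Trp53, which encodes p53 and activates Bbc3, Pmaip1 and Bax in many cells, had 25.4, 23.4 and 23.2 CPM in the EGFP libraries and 199, 184 and 72.0 CPM in the EWS-OCT4 libraries. Its transcript rose 6.31-fold (log2 difference 2.66, SE 0.32, adjusted p = 5.0e-05 by edgeR), by 2.96 in numbers 1 and 2 and 1.63 in number 3. E2f1, which can activate BH3-only genes, rose from 17.1 ± 3.14 to 74.9 ± 12.7 CPM, and Mdm4, an inhibitor of p53, from 88.9 ± 11.3 to 189 ± 60.6 CPM. Myc, a growth regulator that sensitises cells to apoptosis, fell from 19.9 ± 5.82 to 0.733 ± 0.523 CPM. Mdm2, itself a p53 target, was the other gene that fell (286 ± 12.6 to 149 ± 7.80 CPM, named after its values were seen).

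Of the genes that control the stability of family proteins, 5 of 6 were tested, 1 rose, 2 fell and 2 did not pass (median -0.26). March5, a ubiquitin ligase of mitochondria, rose from 69.3 ± 7.04 to 130.0 ± 10.9 CPM. Btrc fell from 85.0 ± 12.2 to 51.9 ± 1.56 CPM. Usp9x, which removes ubiquitin from MCL1, fell by 0.40 on the log2 scale (adjusted p = 0.0147 by edgeR). This call was lost in 4 of 18 alternatives, among them without EWS-OCT4 replicate 2 (adjusted p = 0.0734 by edgeR). Its log2 difference was -0.49 to -0.24 over these 18. The libraries and markers that stood apart, described above, apply to these lists as to the members.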

How the data were processed

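The 6 libraries of 3′ tags (3 per line) were grouped by title. Per the labels' protocols, libraries were made with the Lexogen QuantSeq kit from 500 ng of total RNA each. The submitters' processing notes name Bowtie2, edgeR and mm10, without versions; not given in the sources used here are the counting tool, the annotation and whether strand was used. The authors deposited whole-number counts per gene symbol, 23282 lines per library; 35 symbols on more than 1 line were summed, giving 23238, of which 4305 had no count. Depth was 10978025 to 14935887 counts, and the few counts of low genes limit their precision.

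Counts were filtered with filterByExpr (minimum count 10, total 15), scaled by TMM in edgeR 4.0.16 (R 4.3.3) and tested by a robust quasi-likelihood test, 2-sided, with Benjamini-Hochberg adjustment over 13467 genes at 0.05. The biological coefficient of variation was 19.3%. CPM use the TMM-scaled totals of tested genes. The SE is the log2 change divided by the square root of F, and 95% intervals use the t distribution. Differences within numbers 1 and 2 or number 3 are of log2 CPM with a prior count of 2. Members, lists and alternatives were chosen with earlier results of these data known. Named genes were all members and, per other list, up to 4 called genes with the largest change and a mean of at least 5 CPM. A gene that this rule chose is not reported here. Alternatives used limma 3.58.1 (voom), DESeq2 1.42.0 and the settings in the closing section. Sequences and positions come from RefSeq (GRCm38.p6) and GENCODE M21 (GRCm38).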

Additional observations from a re-analysis of the deposited data

How the results depend on the processing

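Over 18 alternatives, Bcl2l1, Bax, Pmaip1 and Bid kept their direction and call in all of those run. The member alternatives with the same call and direction were 164 of 178, and for the 27 genes chosen from the other lists they were 459 of 480, with 0 reversed. The number of members called was 8, and 7 to 8 with 1 library left out; it was 4 against a change of 1.5-fold, where 3 were higher and 1 lower and where 6399 of 13467 genes were called. One member was lower without both libraries numbered 3, at a mean of at least 10 CPM (which leaves Bik untested) and at an adjusted p of 0.01. Tests against a 1.5-fold change lost Mcl1 (0.58), Bcl2l11 (0.66), Bbc3 (0.42) and Bik (-1.11). At an adjusted p of 0.01, Bbc3 (0.42) and Bik (-1.11) were lost. Bbc3 was also lost with total counts (0.37), and with 1 library left out its log2 difference was 0.33 to 0.53. Bik was lost without both libraries numbered 3 (-0.61), where Bak1 turned to -0.085 (adjusted p = 0.542 by edgeR); the cause was not tested. Bcl2 passed with upper quartile scaling (1.15), a setting that moved the median of all tested genes to 0.16. Deviations of same-numbered libraries from the mean of their line correlated at 0.04, 0.05 and 0.15 between the lines. Number 1 of either line correlated more with number 2 of the other (0.076 and 0.075). The libraries numbered 3 correlated positively with each other only, and at -0.090 to -0.10 with numbers 1 and 2 of the other line. They thus shared part of their deviation, and its source was not tested. The deviations within a line cancel out, so that all these correlations are tied to each other. Such values cannot show whether numbers 1 and 2 were paired, and the labels do not say. With a replicate block, 8 members were called (6 higher, 2 lower) and 8968 of all genes against 9073.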
